A study of Mus musculus with 12 samples.

Results

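The nuclear-encoded respiratory chain genes are the genes of the count table that encode subunits of complexes I to IV and of ATP synthase (complex V), cytochrome c and, where their symbols share a prefix, assembly factors. They were chosen by symbol: those starting with Ndufa, Ndufb, Ndufc, Ndufs, Ndufv, Uqcr, Atp5 or Cox followed by 4, 5, 6, 7 or 8, together with *Sdha*, *Sdhb*, *Sdhc*, *Sdhd*, *Cyc1* and *Cycs*. Symbols with a -ps suffix were left out. This gave 95 of the 24561 genes in the table, of which 89 had enough counts to be among the 12719 genes tested. The 6 that were not tested were near 0 throughout: *Cox6a2* and *Ndufs6b* had no count, and *Cox4i2*, *Ndufa4l2*, *Cox6c2* and *Ndufb4c* had at most 14 counts in any mouse. Among the 11 symbols with a -ps suffix, *Ndufb1-ps* had 12845 counts in all, with a mean of 223 CPM in the mice labelled BCL6-insufficient and 141 CPM in the wild-type mice, and each of the other 10 had at most 393 counts in all.

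As background, complexes I and II pass electrons from NADH and from succinate to ubiquinone, complex III passes them on to cytochrome c, and complex IV passes them to oxygen. Complexes I, III and IV pump protons across the inner mitochondrial membrane, and complex V uses the gradient to make ATP. Complexes I, III, IV and V combine subunits encoded in the nucleus with subunits encoded by mitochondrial DNA, whereas the 4 subunits of complex II are all nuclear. T cells enlarge their mitochondrial mass and respiration after activation.

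The study compared OT-II CD4 T cells, which carry a transgenic T cell receptor for ovalbumin, from CD4-Cre × *Bcl6* fl/+ mice (labelled BCL6-insufficient, with 1 *Bcl6* allele that Cre can delete in T cells) and from CD4-Cre mice (wild-type). Cells of both genotypes carried OT-II and CD4-Cre, on a C57BL/6 background, and were transferred into SAP-deficient CD45.1 recipients, which were then immunized with NP-OVA. On day 3, CXCR5hi PD-1hi Tfh cells were sorted from draining lymph nodes. Messenger RNA was sequenced after SMART-Seq2 amplification from 3 recipients per genotype, with 2 technical repeats of about 200 cells for each mouse. The repeats were summed, so that n = 3 mice per genotype. The number of donors was not given in the sources used here, so donor and genotype cannot be told apart where recipients of a genotype shared a donor. Nor were the ages of the mice given there.

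Libraries held between 3343375 and 8315722 counts. *Bcl6*, on chromosome 16 of GRCm38 from 23965052 to 23988852, was higher in the mice labelled BCL6-insufficient (148 ± 2.17 CPM, SD, n = 3) than in the wild-type mice (62.3 ± 11.5 CPM, SD, n = 3), with a log2 fold change of 1.25 (SE 0.12, adjusted p = 6.3e-07, edgeR). This goes against the label and the counts do not separate an intact from a deleted allele, so groups are called here as they are labelled and every direction below rests on those labels. The 6 T cell markers summed to between 2269 and 2709 CPM in every mouse. Among the libraries, 2 wild-type ones stood apart: repeat 1 of mouse 2 had 20.9% of its counts on the ribosomal RNA gene CT010467.1 (median of the other libraries 15.5%), and repeat 2 of mouse 3 had 952 CPM over the B cell markers (median of the others 609). *Cd4* and *Cd5* were lower with the BCL6-insufficient label, as were *Cxcr5*, *Pdcd1* and *Tox2*, while *Icos* was higher. With GC and length trends removed, *Cd4* (adjusted p = 0.166, edgeR) and *Cd5* (0.311) were no longer called. The 7 B cell markers summed to 505 to 692 CPM in the mice labelled BCL6-insufficient and 596 to 830 in the wild-type mice, nearly all of it *Ighm*, with *Ms4a1* at no more than 1.13 CPM in any mouse, and none of the 5 tested was called. The 5 myeloid markers in the table summed to 107 to 111 CPM and 83.4 to 89.2 CPM, most of it *Cst3* (means of 88.2 and 76.6 CPM, not called). Of the 4 tested, 1 was higher, *Lyz2*, at a low level (3.18 to 16.4 CPM against 0.0914 to 2.04, log2 fold change 2.64, SE 0.63, adjusted p = 0.00532, edgeR). *Cd8b1* with *Cd8a* summed to 21.04 to 31.8 and 26.5 to 39.6 CPM, *Cd8a* itself to at most 0.15, and the NK marker *Klrb1c* to at most 1.54. The part of these cells in the results below was not tested, and in sorted bulk cells a lower level may be fewer cells of a kind or less RNA in each, which cannot be told apart.

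In the mice labelled BCL6-insufficient, 16 of the 29 accessory subunits of complex I and 8 of the 14 genes of complex IV were higher. So were the 5 small subunits of complex III and 8 of the 9 stalk and membrane subunits of complex V, by up to 1.70-fold for *Atp5md*. Several nuclear-encoded catalytic and core subunits and 2 genes of complex II were lower, down to 0.515 of the wild-type level for *Sdhd*. The classes within complexes III and V were drawn up after the values were seen. Of the 89 genes tested, 42 passed an adjusted p of 0.05 upwards and 9 downwards (edgeR, quasi-likelihood F test, Benjamini-Hochberg over all 12719 genes), or 47.2% and 10.1%. Over all genes tested, 9.17% were higher and 8.82% lower. Their median log2 fold change was 0.26, beside 0.01 over all genes tested, and 61 were above 0. In 53 the mice labelled BCL6-insufficient were all above the wild-type mice, and in 14 all below, where 17.4% and 17% of all tested genes separated in those directions. From the deposited TPM values (limma on log2(TPM + 1)), 17 were higher and 9 lower, beside 3.07% and 7.2% of all genes, and the median was 0.11. With technical repeat 1 only, 18 were higher and 4 lower in edgeR's test, with repeat 2 only, 38 and 7, and without the 2 wild-type libraries that stood apart 30 were higher and 6 lower.

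**Figure D1:**
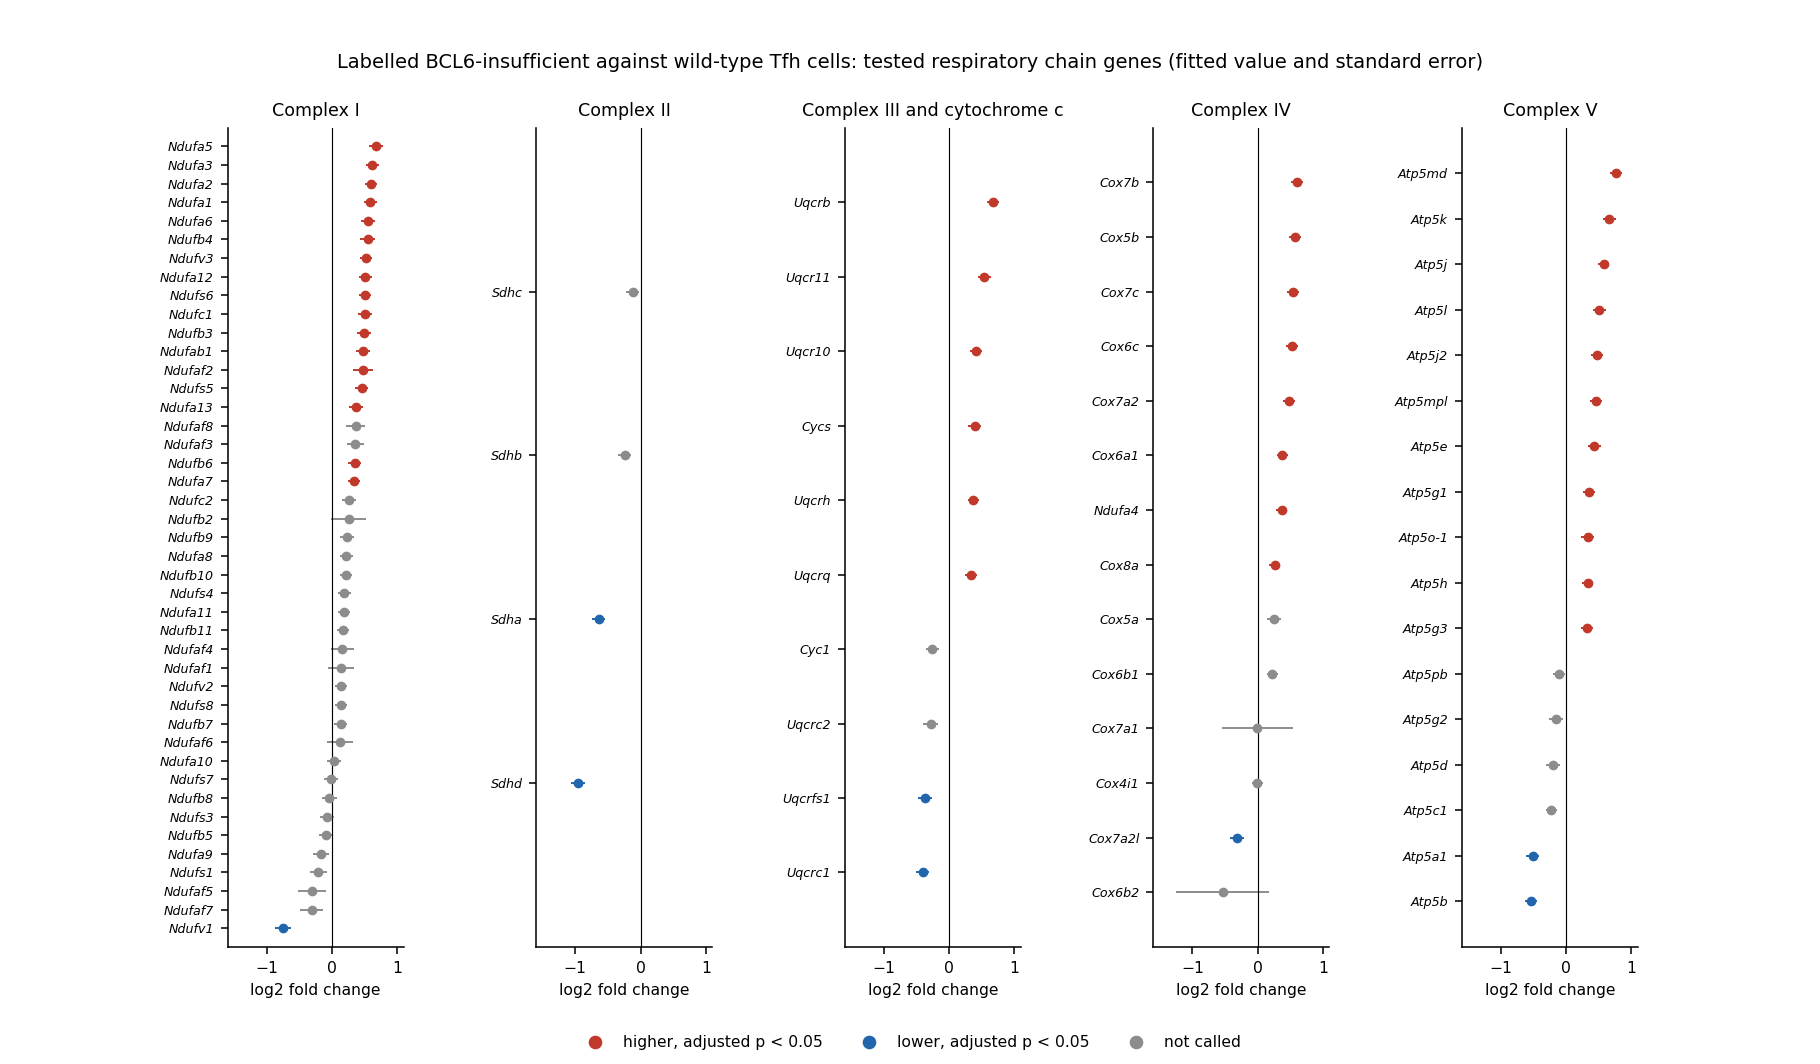
Fitted log2 fold change (x axis, labelled BCL6-insufficient against wild-type mice) of tested respiratory chain genes, with bars for the standard error, in 1 panel per complex; red and blue points had an adjusted p under 0.05. Within complexes I, III and V the blue points lie at the bottom and most others to the right of 0, and all 4 genes of complex II lie to the left.

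Summed over all 95 genes, normalised expression was 24050, 24461 and 26426 CPM in the 3 mice labelled BCL6-insufficient and 21338, 21458 and 22968 CPM in the 3 wild-type mice. The groups did not overlap, and the ratio of their means was 1.14. The sum fell into parts that moved in opposite directions. Complex II summed to 600.1 ± 41.1 CPM against 808 ± 60.7 (SD, n = 3 each), a ratio of 0.743, whereas complex I had a ratio of 1.21, complex IV of 1.24, complex III with cytochrome c of 1.14 and complex V, the one complex whose groups overlapped, of 1.06. Complexes III and V were also divided into finer classes, which were drawn up after the values were seen. The ratio was 0.791 for the redox and core subunits of complex III and 1.36 for its small subunits. It was 0.817 for F1 of ATP synthase and 1.35 for its stalk and membrane subunits. These classes describe the libraries, and the division was not tested.

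**Figure D2:**
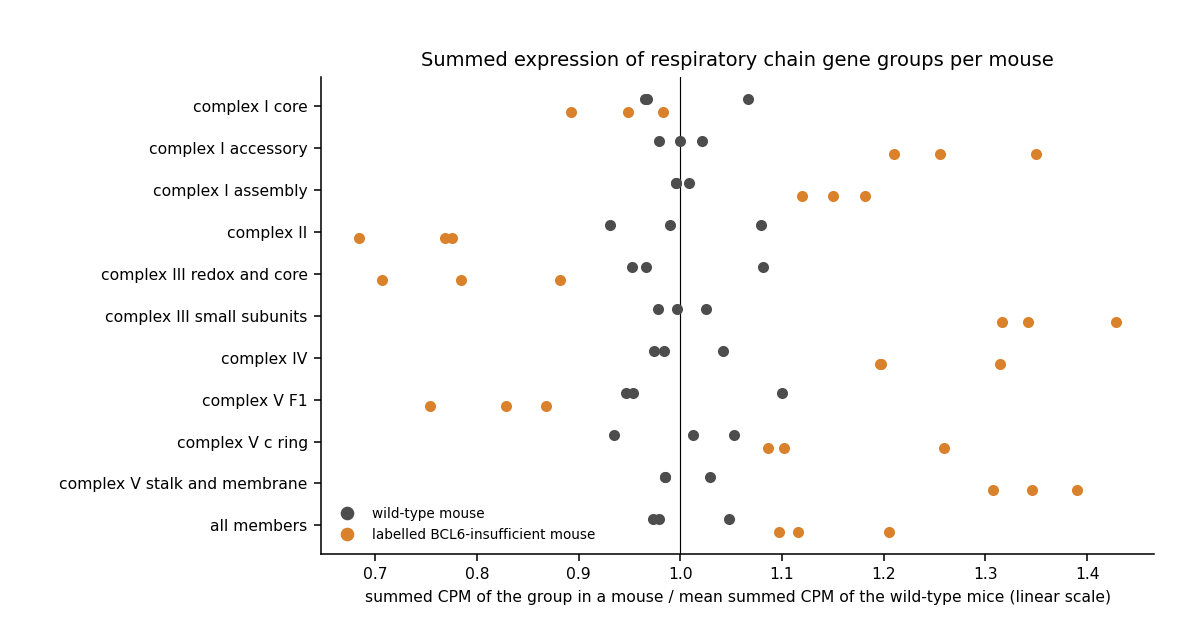
Summed CPM of each group of genes in each mouse, divided by the mean of the 3 wild-type mice (linear x axis), with 1 point per mouse. The classes within complexes III and V were drawn up after the values were seen. The labelled BCL6-insufficient mice lie below the wild-type mice for complex II, for the redox and core subunits of complex III and for F1, overlap them for the complex I core, and lie above them for the other groups plotted, among them the 2 other parts of complex V, its c ring and its stalk and membrane subunits.

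Since many of these genes moved together, their promoters were read for 4 motifs known from respiratory chain genes. Nuclear respiratory factor 1 (NRF1) and GABP, an ETS factor also called NRF2, are known activators of these genes. In the window from 250 bases before to 50 after the start (RefSeq, GRCm38.p6), 74 of the 95 genes had a promoter. The NRF1 core GCATGCGC was found on either strand in 17.6% of the 74, against 6.41% of the 8825 tested genes with a promoter and 3.05% of all 27025. The ETS motif CCGGAAG was in 25.7%, against 22.5% and 9.93%. The YY1 motif AAGATGG was in 16.2%, against 8.83% and 7.28%, and the Sp1 motif GGGCGG in 47.3%, against 68.6% and 38.2%. The NRF1 core was in 16.7% of the 36 genes called higher, in 1 of the 7 called lower and in 19.4% of the 31 not called, and the ETS motif was in 30.6%, in 1 and in 22.6%. Shown here are the 150 bases before the start for 5 genes described below, read 5′ to 3′ on the gene's own strand, with the NRF1 or ETS matches that lie whole within these bases in capitals: *Sdhd* was lower, *Sdhb* beside it in complex II was not called, and *Uqcr11*, *Cycs* and *Atp5k* were higher. They lie at chr9:50603850-50603999 (minus strand), chr4:140961121-140961270 (plus strand), chr10:80406822-80406971 (minus strand), chr6:50566570-50566719 (minus strand) and chr5:108434400-108434549 (minus strand).
Sdhd: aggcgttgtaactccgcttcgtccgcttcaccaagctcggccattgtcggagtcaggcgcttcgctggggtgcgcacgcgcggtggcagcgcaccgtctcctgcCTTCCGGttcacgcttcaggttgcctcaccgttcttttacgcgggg
Sdhb: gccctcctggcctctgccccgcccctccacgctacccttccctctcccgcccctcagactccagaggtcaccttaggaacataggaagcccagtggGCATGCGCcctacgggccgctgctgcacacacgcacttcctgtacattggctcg
Uqcr11: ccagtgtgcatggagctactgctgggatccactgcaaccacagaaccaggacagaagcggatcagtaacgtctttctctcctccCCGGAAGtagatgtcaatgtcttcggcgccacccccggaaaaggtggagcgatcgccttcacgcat
Cycs: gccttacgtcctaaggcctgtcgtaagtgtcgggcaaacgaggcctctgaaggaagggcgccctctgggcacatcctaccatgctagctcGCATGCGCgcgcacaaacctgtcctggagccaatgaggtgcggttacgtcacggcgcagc
Atp5k: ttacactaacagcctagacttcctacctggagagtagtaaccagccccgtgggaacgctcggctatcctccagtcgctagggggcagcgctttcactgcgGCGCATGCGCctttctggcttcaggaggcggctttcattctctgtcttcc
The ETS match begins 46 bases before the start of *Sdhd* (on the opposite strand) and 66 before that of *Uqcr11*. The NRF1 core begins 54 bases before the start of *Sdhb* and 60 before that of *Cycs*. In *Atp5k* it occurs on both strands in overlapping letters, beginning 50 and 48 bases before the start. Past the bases shown, *Uqcr11* also holds an NRF1 core that spans its start, and *Sdhb* and *Atp5k* each hold an ETS match after the start. *Sdhd*, which was lower, thus shares the ETS letters with *Uqcr11* and *Atp5k*, which were higher, and holds no NRF1 core in the window. A match is no more than a match of letters.

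Complex I divided by the role of the subunit. Of its 7 nuclear-encoded core subunits, which bind the flavin and the iron-sulfur clusters in the arm that faces the matrix, 2 were lower and 0 higher (median log2 fold change -0.08), while 16 of the 29 accessory subunits were higher and 0 lower (median 0.35). *Ndufv1*, which binds NADH and the flavin, had 68.7, 87.8 and 82.4 CPM in the mice labelled BCL6-insufficient and 118, 123 and 161 CPM in the wild-type mice. The groups were well apart, with wild-type mouse 3 the highest, and the log2 fold change was -0.75 (SE 0.13, adjusted p = 0.000254, edgeR). Among the core genes that were not called, log2 fold changes reached from -0.21 (*Ndufs1*) to 0.14 (*Ndufs8* and *Ndufv2*). *Ndufs8*, an iron-sulfur subunit, had the highest level of the core genes per length of transcript, 297 CPM per kb in the mice labelled BCL6-insufficient and 270.3 CPM per kb in the wild-type mice.

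The accessory subunits surround the core of complex I and are needed for its assembly and stability. *Ndufa2* had 408, 403 and 435 CPM in the mice labelled BCL6-insufficient and 260.3, 286 and 274 CPM in the wild-type mice (log2 fold change 0.60, SE 0.09, adjusted p = 7.69e-05, edgeR). *Ndufa5* had 156, 134 and 161 CPM against 93.0, 93.6 and 96.2 (log2 fold change 0.67, SE 0.11, adjusted p = 0.000134, edgeR). For both, the lowest mouse labelled BCL6-insufficient was above the highest wild-type mouse by more than the range within either group. *Ndufa1*, a small protein of the membrane arm, had 255, 237 and 258 CPM against 164, 168 and 167 (log2 fold change 0.59, SE 0.09, adjusted p = 0.00015, edgeR). *Ndufa3* had 347, 334 and 361 CPM against 216, 206 and 258 (log2 fold change 0.61, SE 0.10, adjusted p = 0.000169, edgeR) and was the highest of the accessory genes per length, at 523 CPM per kb in wild-type mice. The other 12 called higher included *Ndufab1*, the mitochondrial acyl carrier protein (log2 fold change 0.47), *Ndufv3* (0.52) and *Ndufa13* (0.37). In 22 of the 29 accessory genes the groups did not overlap with the label BCL6-insufficient higher, and in 0 with it lower. Over all genes tested, 17.4% and 17% separated in those directions. Once GC and length trends were removed, 14 of the 29 were higher and 1 lower, *Ndufb5* (log2 fold change -0.29, adjusted p = 0.0405, edgeR), beside 8.16% and 7.18% of all genes.

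Of the 8 complex I assembly factors that share the prefix, which help build the complex without staying in it, 1 was called higher, beside 9.17% of all genes tested. *Ndufaf2* had 38.2, 35.8 and 42.6 CPM in the mice labelled BCL6-insufficient and 25.5, 30.4 and 28.0 CPM in the wild-type mice (log2 fold change 0.47, SE 0.15, adjusted p = 0.0355, edgeR). This call needed nearly every mouse, since its adjusted p was between 0.0545 and 0.137 in 5 of the 6 edgeR fits that each left out a mouse, and was 0.235 with GC and length trends removed. *Ndufaf3* was just outside the threshold (56.7, 61.0 and 56.3 CPM against 49.7, 40.9 and 45.6, log2 fold change 0.35, SE 0.13, adjusted p = 0.0614, edgeR). *Ndufaf8* was the highest of the assembly factors per length, at 61.7 CPM per kb in wild-type mice, and had a log2 fold change of 0.36 (SE 0.15, adjusted p = 0.0967, edgeR). The median log2 fold change of the 8 was 0.15.

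Complex II links the respiratory chain to the TCA cycle by oxidizing succinate, and all 4 of its genes had a log2 fold change below 0 (median -0.44), of which 2 were called. *Sdhd*, a membrane anchor that binds heme and ubiquinone, lies on chromosome 9 of GRCm38 from 50596357 to 50603812. It had 72.7, 70.6 and 75.6 CPM in the mice labelled BCL6-insufficient and 130.1, 144 and 151 CPM in the wild-type mice. The mice within each group were close to each other and the groups were far apart, with a log2 fold change of -0.96 (SE 0.11, adjusted p = 2.24e-06, edgeR), the lowest of the 89 genes. *Sdha*, the flavoprotein that oxidizes succinate, lies on chromosome 13 from 74322254 to 74350280 and had 131, 154 and 137 CPM against 205, 211 and 243 (log2 fold change -0.64, SE 0.10, adjusted p = 0.000169, edgeR). It too did not overlap between the groups. *Sdhb*, the iron-sulfur subunit, had 242, 274 and 296 CPM against 300.3, 306 and 354, so that the highest mouse labelled BCL6-insufficient was just below the lowest wild-type mouse, and it was not called (log2 fold change -0.24, SE 0.10, adjusted p = 0.0956, edgeR). *Sdhc*, the other membrane anchor, overlapped between the groups, with 107, 123 and 118 CPM against 117, 139 and 124 (log2 fold change -0.12, SE 0.11, adjusted p = 0.476, edgeR). The 4 subunits form 1 complex, yet their log2 fold changes spanned -0.96 to -0.12. *Sdhb* had the highest level of the 4 per length, at 237 and 280.4 CPM per kb.

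In complex III, the 4 redox and core subunits were all below 0 (2 lower, 0 higher, median log2 fold change -0.32) and the 5 small subunits were all higher (median 0.41). *Uqcrc1*, a large core protein that faces the matrix, had 279, 303 and 341 CPM in the mice labelled BCL6-insufficient and 390.1, 376 and 456 CPM in the wild-type mice (log2 fold change -0.40, SE 0.10, adjusted p = 0.00686, edgeR). *Uqcrfs1*, the Rieske iron-sulfur protein, had 117, 129 and 151 CPM against 165, 167 and 178 (log2 fold change -0.36, SE 0.11, adjusted p = 0.0204, edgeR). In both, mouse 3 was the highest of each group, and the groups did not overlap. The call of *Uqcrc1* was lost without wild-type mouse 3 (adjusted p = 0.0547, edgeR) and with GC and length trends removed (0.0878), and that of *Uqcrfs1* was lost without BCL6-insufficient mouse 1 (0.112), BCL6-insufficient mouse 2 (0.0744) or wild-type mouse 3 (0.0785). *Cyc1*, cytochrome c1, was just outside the threshold with 180, 194 and 203 CPM against 214, 232 and 244 (log2 fold change -0.26, SE 0.10, adjusted p = 0.0683, edgeR), and *Uqcrc2*, the other core protein, had a log2 fold change of -0.28 (adjusted p = 0.0899, edgeR).

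The small subunits of complex III went the other way. *Uqcrb* had 292, 289 and 296 CPM in the mice labelled BCL6-insufficient and 176, 189 and 183 CPM in the wild-type mice (log2 fold change 0.68, SE 0.09, adjusted p = 2.87e-05, edgeR). *Uqcr11* had 262, 261 and 311 CPM against 182, 183 and 207 (log2 fold change 0.54, SE 0.10, adjusted p = 0.000648, edgeR). *Uqcr10* had 470.4, 446 and 520 CPM against 353, 354 and 374 (log2 fold change 0.41, SE 0.09, adjusted p = 0.00274, edgeR). None of these overlapped between the groups, and *Uqcr10* had the highest level in complex III per length, 1103 and 829.5 CPM per kb. *Uqcrh*, the hinge protein at the cytochrome c docking site, had a log2 fold change of 0.37 (SE 0.09, adjusted p = 0.0044, edgeR), and *Uqcrq* of 0.34 (adjusted p = 0.0108, edgeR). With GC and length trends removed, 2 of the 5, *Uqcrb* and *Uqcr11*, kept an adjusted p under 0.05. *Cycs*, cytochrome c itself, which carries electrons from complex III to complex IV and which also triggers caspases when it leaves the mitochondria, had 253, 285 and 291 CPM against 192, 210.4 and 228 (log2 fold change 0.40, SE 0.10, adjusted p = 0.00731, edgeR). Its adjusted p was 0.0606 without wild-type mouse 1.

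In complex IV, which transfers electrons to oxygen, 8 of the 14 tested genes were higher and 1 lower (median log2 fold change 0.32). After the removal of GC and length trends, 6 were higher and 1 lower (median 0.13), and *Cox8a* (adjusted p = 0.118, edgeR) and *Ndufa4* (0.754) were no longer called. The nuclear subunits counted here surround a catalytic core encoded by mitochondrial DNA. *Cox5b*, a zinc-binding subunit on the matrix side, had 510, 511 and 552 CPM in the mice labelled BCL6-insufficient and 364, 340.4 and 354 CPM in the wild-type mice (log2 fold change 0.57, SE 0.09, adjusted p = 0.000108, edgeR). *Cox7b* had 439, 399 and 462 CPM against 288, 267 and 303 (log2 fold change 0.60, SE 0.09, adjusted p = 0.000125, edgeR), *Cox7c* a log2 fold change of 0.54 (SE 0.09, adjusted p = 0.00035, edgeR) and *Cox6c* of 0.53 (SE 0.10, adjusted p = 0.000497, edgeR). All 4 did not overlap between the groups. *Cox4i1*, the large regulatory subunit, had the highest level of all 89 genes per length in wild-type mice, with 965, 989 and 1138 CPM against 996, 1028 and 1082, or 1365 and 1371 CPM per kb. Its groups overlapped fully (log2 fold change -0.01, SE 0.09, adjusted p = 0.972, edgeR), and the sign of this value turned under several alternatives given in the closing part. *Cox7a2l* was the lower gene, with 138, 166 and 152 CPM against 172, 189 and 205 (log2 fold change -0.31, SE 0.10, adjusted p = 0.0405, edgeR). Its call was lost in 4 of the 6 edgeR fits that each left out a mouse, with adjusted p between 0.0712 and 0.176. *Cox6b1* was just outside the threshold (log2 fold change 0.23, SE 0.09, adjusted p = 0.0732, edgeR).

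The isoforms of complex IV known from heart, skeletal muscle, lung or testis were barely detected. *Cox6b2* and *Cox7a1* reached at most 1.83 and 3.00 CPM in any mouse, and *Cox4i2* and *Cox6a2* were among the genes too low to test. The 4 together summed to 2.40 to 4.80 CPM in the mice labelled BCL6-insufficient and 3.11 to 4.05 CPM in the wild-type mice, and the groups overlapped.

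Complex V is a rotary enzyme with a catalytic head in the matrix (F1), a ring of c subunits in the membrane, and a peripheral stalk with small membrane subunits that hold the parts together. Of its 17 genes, 11 were higher and 2 lower (median log2 fold change 0.33). With GC and length trends removed, 6 of the 16 genes with a length were higher and 3 lower (median 0.21). The 2 lower genes without the removal were the alpha and beta subunits, which form the catalytic sites. *Atp5b*, the beta subunit, lies on chromosome 10 from 128083273 to 128090391 and had 906, 1018 and 1023 CPM in the mice labelled BCL6-insufficient and 1371, 1278 and 1618 CPM in the wild-type mice (log2 fold change -0.53, SE 0.09, adjusted p = 0.000369, edgeR). *Atp5a1*, the alpha subunit, had 499.8, 613 and 613 CPM against 750.5, 788.5 and 921 (log2 fold change -0.51, SE 0.10, adjusted p = 0.000972, edgeR). Both pairs of groups were apart, and wild-type mouse 3 was again the highest. The gamma subunit *Atp5c1* was just outside the threshold (451, 503 and 471 CPM against 511, 556 and 598, log2 fold change -0.22, SE 0.09, adjusted p = 0.0911, edgeR), the delta subunit *Atp5d* had a log2 fold change of -0.20 (adjusted p = 0.185, edgeR), and the epsilon subunit *Atp5e* was higher with 576, 528 and 648 CPM against 400.2, 475 and 422 (log2 fold change 0.43, SE 0.10, adjusted p = 0.00308, edgeR), a call lost with the trends removed (adjusted p = 0.0721, edgeR). Per length, *Atp5e* was the highest gene of complex V, at 1387 and 1027 CPM per kb.

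The stalk and membrane subunits of complex V were higher in 8 of 9 cases, and in 5 of the 8 with a length once GC and length trends were removed. *Atp5md*, also called DAPIT, had 390.2, 435 and 419 CPM in the mice labelled BCL6-insufficient and 234, 242 and 258 CPM in the wild-type mice, the largest log2 fold change of the 89 genes (0.76, SE 0.09, adjusted p = 5.87e-06, edgeR). *Atp5k*, subunit e, had 315, 313 and 362 CPM against 193, 219 and 214 (log2 fold change 0.66, SE 0.10, adjusted p = 6.78e-05, edgeR). *Atp5j*, coupling factor 6 of the stalk, had 766, 798 and 732 CPM against 513, 506 and 518 (log2 fold change 0.58, SE 0.08, adjusted p = 6.53e-05, edgeR). All 3 were far apart between the groups. *Atp5j2*, subunit f, had a log2 fold change of 0.48 (SE 0.09, adjusted p = 0.000806, edgeR). The stalk subunit b, *Atp5pb*, was the exception (log2 fold change -0.11, adjusted p = 0.467, edgeR). The 3 genes for the c subunit, which encode the same mature protein behind different targeting sequences, differed among themselves, with log2 fold changes of 0.35 for *Atp5g1* (adjusted p = 0.0116, edgeR), 0.32 for *Atp5g3* (adjusted p = 0.0159, edgeR, and 0.0949 with the trends removed) and -0.15 for *Atp5g2* (adjusted p = 0.35, edgeR).

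Some of these sizes depended on the technical repeat. With repeat 1 only and repeat 2 only, *Atp5md* had a log2 fold change of 0.46 and 1.01 and *Atp5k* of 0.43 and 0.84, both called in each. *Cox6c* had 0.17 and 0.82, *Cox7c* 0.27 and 0.76 and *Atp5e* 0.15 and 0.67, and all 3 were called with repeat 2 but not with repeat 1. *Sdha* had -0.43 and -0.78, the former not called, while *Sdhd* had -0.94 and -0.95.

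**Figure D3:**
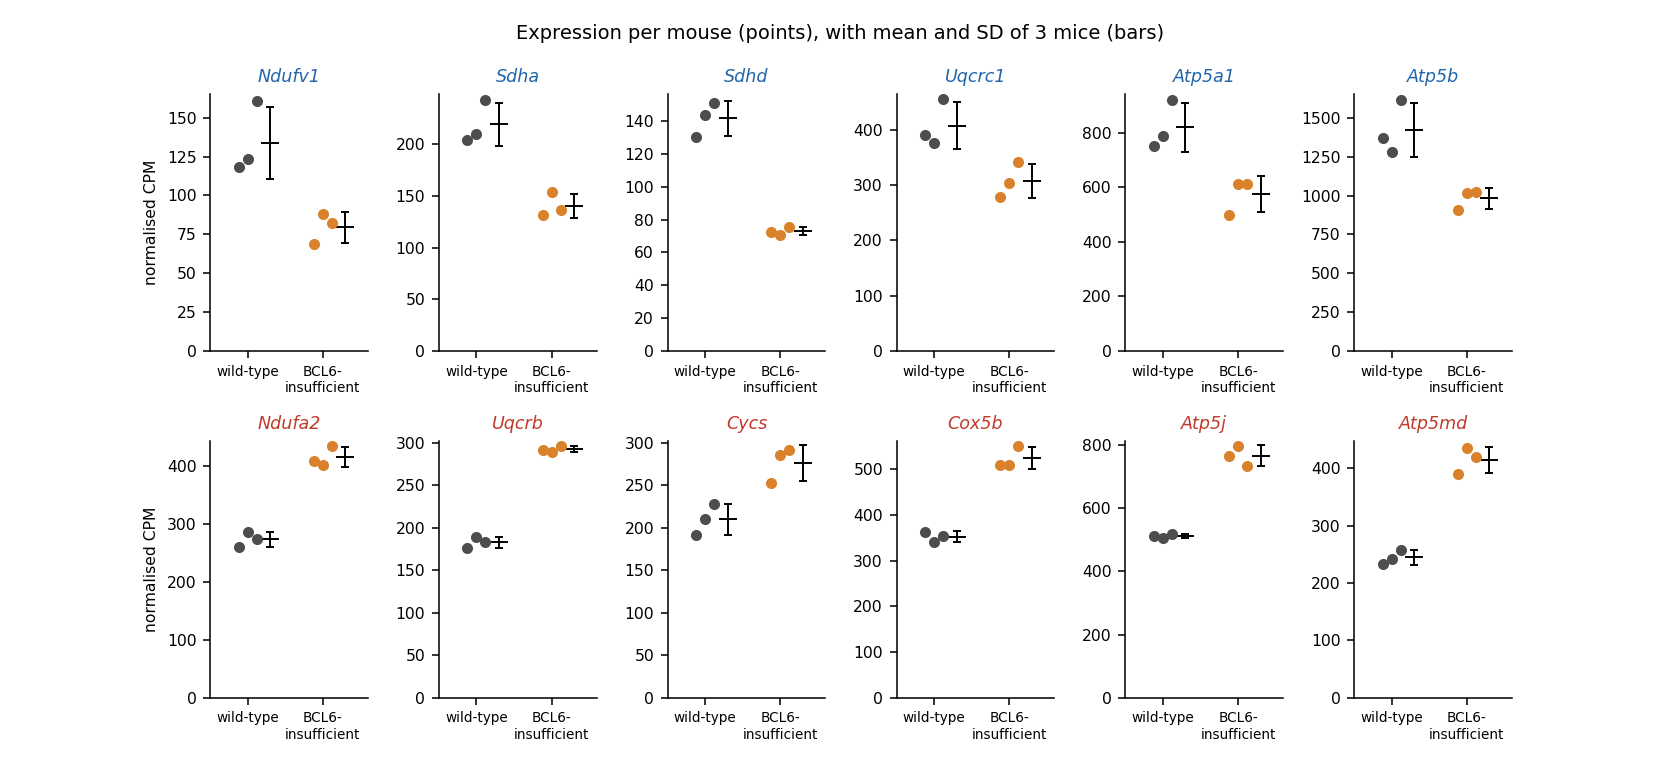
Normalised CPM (y axis, from 0) of 12 respiratory chain genes in each mouse, with the mean and SD of 3 mice beside the points; genes with blue titles were lower and genes with red titles higher in the mice labelled BCL6-insufficient. The 12 genes were picked from those called, and the groups do not overlap in any of the 12 panels. Over all tested genes, 17.4% separated with the label BCL6-insufficient higher and 17% with it lower. *Sdhd* has the lowest ratio, with means of 142 CPM in wild-type mice and 73.0 CPM in the mice labelled BCL6-insufficient.

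Among the nuclear-encoded genes, a set of core and catalytic subunits, taken with all 4 genes of complex II, differed from the rest in the direction of its median. Not every part did so clearly: of the 7 core subunits of complex I, 5 were not called and 2 were above 0, and their sums overlapped between the groups. The 7 core subunits of complex I, the 4 genes of complex II, the 4 redox and core subunits of complex III, and the alpha and beta subunits of ATP synthase make up 17 genes, of which 0 were higher and 8 lower (median log2 fold change -0.28), with 15 below 0. The other 72 tested genes had 42 higher and 1 lower, *Cox7a2l* (median 0.35). After removal of GC and length trends, 0 of the 17 were higher and 6 lower (median -0.24), and of the 71 others with a length 30 were higher and 3 lower, *Cox7a2l*, *Atp5c1* and *Ndufb5* (median 0.22). The 17 genes summed to 3654, 4088 and 4233 CPM in the mice labelled BCL6-insufficient and 4893, 4902 and 5671 CPM in the wild-type mice, a ratio of 0.774, and the other 72 summed to 20395, 20372 and 22191 CPM against 16444, 16553 and 17296, a ratio of 1.25. This division was made after the values were seen, from general knowledge of the subunits, so it describes these libraries and was not tested. It does not extend to the core subunits that mitochondrial DNA encodes, whose log2 fold changes, given below, were above 0. The calls of *Atp5a1*, *Atp5b*, *Ndufv1*, *Sdha* and *Sdhd* were kept in all 6 fits that left out a mouse, as were 32 of the 42 higher calls.

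The difference between the groups also followed the length of the transcript among these genes. Genes called higher had a median length of 572 bases (321.5 to 3123, 41 genes with a length), and genes called lower of 1584 bases (1102.5 to 2900, 9 genes). Among the 54 genes under 1000 bases, 36 were higher and 0 lower, and among the 34 of 1000 bases or more, 5 were higher and 9 lower. Over all tested genes, 16.7% of those under 1000 bases were higher and 4.77% lower, and 7.50% of those of 1000 bases or more were higher and 9.72% lower. Across the 88 genes with a length, Spearman's correlation of log2 fold change with length was -0.58, where the genes share the same 6 mice and are not independent, and across all 12586 tested genes with a length it was -0.02. With trends of GC content and length removed in each mouse, 30 of the 88 genes were higher and 9 lower in edgeR's test, beside 8.16% and 7.18% of all genes, the median log2 fold change was 0.17, and the correlation was -0.33. Of the earlier calls, 29 higher and 7 lower were kept. *Sdhd* had a log2 fold change of -0.94 in that fit, *Sdha* of -0.58, *Ndufv1* of -0.61 and *Atp5b* of -0.42, all 4 still called, while *Atp5md* had 0.39 and *Uqcrb* 0.36 (both called) and *Ndufa4*, the complex IV subunit once counted to complex I, had 0.05 and was not called. The 17 core and catalytic subunits had a median length of 1528.5 bases and the other tested genes one of 645 bases, so these roles also differed in length, though *Ndufs7* (870.5 bases) and *Ndufs8* (980 bases) of the core were under 1000 bases, and the part of each was not tested. Transcripts of long length that were higher existed too: *Cycs* at 3123 bases, *Atp5g1* at 2675.5 bases and *Ndufab1* at 2447.5 bases.

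**Figure D4:**
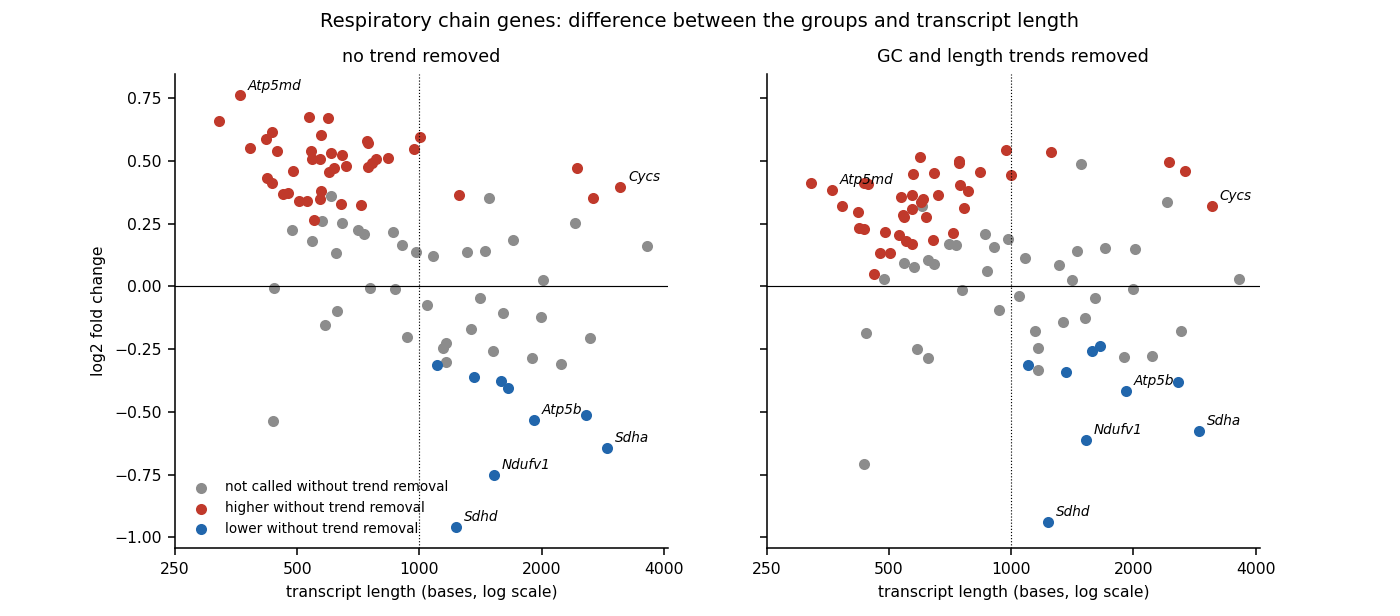
Log2 fold change (y axis) of each respiratory chain gene against its transcript length (x axis, log scale), without (left) and with (right) removal of GC and length trends; colours give the calls without trend removal and the dotted line marks 1000 bases. The red points gather left of the line and all 9 blue points lie right of it, and on the right the red points come closer to 0 while *Sdhd*, *Sdha*, *Ndufv1* and *Atp5b* stay low.

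Beside the nuclear genes, 9 of the 12 tested subunits encoded by mitochondrial DNA were higher with the BCL6-insufficient label and 0 lower (median log2 fold change 0.85). The 7 that belong to the core of complex I all had log2 fold changes above 0, from 0.48 (*mt-Nd1*) to 1.48 (*mt-Nd6*), of which those of *mt-Nd3* and *mt-Nd4l* were not called. *mt-Nd4*, a membrane subunit of complex I, had a mean of 728 CPM against 361 (log2 fold change 1.01, SE 0.10, adjusted p = 6.3e-07, edgeR), and *mt-Cytb*, the cytochrome b of complex III, 3808 CPM against 2718 (0.49, SE 0.09, adjusted p = 0.000388, edgeR). *mt-Co1*, the catalytic subunit of complex IV, had 3065 and 3013 CPM, with overlapping groups (0.02, SE 0.10, adjusted p = 0.896, edgeR). With GC and length trends removed, 6 of the 12 were higher, beside 8.16% of all genes. *mt-Nd1* (adjusted p = 0.0583, edgeR), *mt-Co3* (0.0623) and *mt-Atp6* (0.224) were no longer called.

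Several enzymes that feed the chain were lower. Of the 17 genes of the TCA cycle and pyruvate dehydrogenase, 8 were lower and 0 higher (median log2 fold change -0.29), and 7 were lower with the trends removed. Over all genes tested, 8.82% were lower and 9.17% higher, and 7.18% were lower with the trends removed. *Cs*, citrate synthase, had between 183 and 188 CPM in the mice labelled BCL6-insufficient and between 249.6 and 285 CPM in the wild-type mice (log2 fold change -0.51, SE 0.09, adjusted p = 0.000624, edgeR). *Dld*, the dihydrolipoamide dehydrogenase shared by the keto acid dehydrogenases, had a log2 fold change of -0.66 (SE 0.16, adjusted p = 0.00442, edgeR), and *Idh3a*, of the NAD-linked isocitrate dehydrogenase, of -0.55 (SE 0.13, adjusted p = 0.00484, edgeR). Of 6 carriers and pores, 3 were lower and 0 higher: *Vdac1*, the main outer membrane channel (-0.70, SE 0.12, adjusted p = 0.000216, edgeR), *Slc25a5*, an ADP/ATP carrier (-0.49, SE 0.10, adjusted p = 0.00125, edgeR), and *Vdac3* (-0.38, SE 0.10, adjusted p = 0.0118, edgeR). The median of the 6 was -0.31.

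Assembly factors with other names were mixed, 4 of 39 higher and 3 lower (median log2 fold change 0.03), shares close to the 9.17% and 8.82% of all genes tested. The higher ones were *Pet100* (0.74) and *Cox20* (0.70), which serve complex IV, and *Uqcc2* (0.55) and *Uqcc3* (0.44), which serve complex III. The lower ones were *Hccs*, which attaches heme to cytochrome c (-0.75), *Cox15*, of heme a synthesis (-0.58), and *Atpaf2*, a chaperone of F1 (-0.52), whose call was lost with GC and length trends removed (adjusted p = 0.0723, edgeR). Among 12 tested regulators of mitochondrial biogenesis, *Yy1* was higher (log2 fold change 0.77, SE 0.14, adjusted p = 0.000621, edgeR), and *Gabpa*, a subunit of the ETS factor GABP (-0.42, SE 0.13, adjusted p = 0.0315, edgeR), and *Polrmt*, the mitochondrial RNA polymerase (-0.55, SE 0.19, adjusted p = 0.0422, edgeR), were lower. With GC and length trends removed, *Polrmt* was no longer called (adjusted p = 0.219, edgeR), and *Esrra*, the estrogen-related receptor alpha, was (log2 fold change 0.99, adjusted p = 0.0156, edgeR, against 0.72 and 0.0701 without the removal). *Nrf1* itself had between 63.9 and 76.2 CPM against 75.5 and 85.4, overlapping groups (-0.22, SE 0.12, adjusted p = 0.2, edgeR). *Ppargc1a*, the coactivator known from muscle and brown fat, reached at most 0.0914 CPM in any mouse and was not tested.

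**Figure D5:**
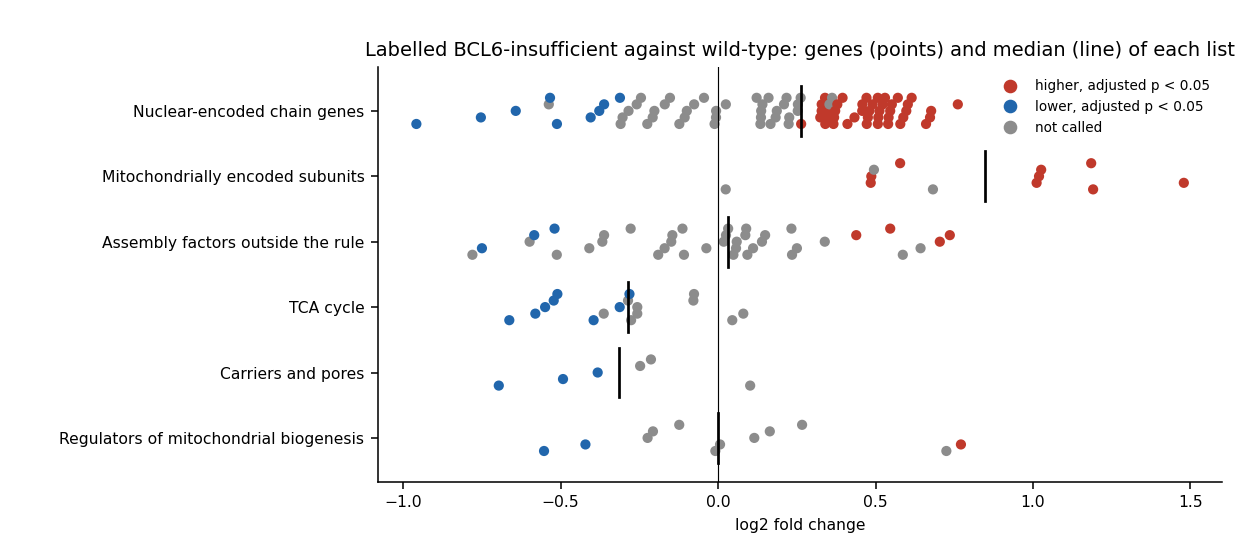
Log2 fold change (x axis, labelled BCL6-insufficient against wild-type mice) of each tested gene (points, spread vertically to be seen) in the respiratory chain genes and in 5 neighbouring lists, with a line at each median. Mitochondrially encoded subunits have a median of 0.85, respiratory chain genes of 0.26, and the TCA cycle and the carriers and pores have medians of -0.29 and -0.31.

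In level, the respiratory chain genes ranged widely. Per length in wild-type mice, the median was 503 CPM per kb for complex IV, 496 for complex V, 294 for complex III with cytochrome c, 158 for complex I and 95.4 for complex II, and 14.9 for the complex I assembly factors. In the mice labelled BCL6-insufficient these medians were 729, 548, 366, 177, 58.8 and 15.3 CPM per kb. The order of the complexes by median was thus the same in both groups. Between the mice of a group the genes varied little, with a median SD of 7.50% of the mean in the mice labelled BCL6-insufficient and 6.43% in the wild-type mice over the 89 genes. As many as 73 of the 89 had a mean of at least 100 CPM in either group. Several of these genes have processed pseudogenes of near-identical sequence, and how reads that match both were counted was not given in the sources used here, so their counts are uncertain to that extent.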

How the data were processed

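Per the paper's methods and the labels, the authors aligned reads to GRCm38 with HISAT2 2.2.1, obtained gene counts with HTSeq-count and deposited these raw counts, with the technical repeats as separate columns. The deposited TPM values were made by the authors from these counts, and the gene length behind them, the strandedness and the annotation release were not given in the sources used here. The authors' own differential test used DESeq2.

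Repeats were summed per mouse, and 3 mice per genotype were compared over all genes by the quasi-likelihood test of edgeR 4.0.16 (R 4.3.3) after TMM and filterByExpr, with Benjamini-Hochberg adjustment and a threshold of 0.05. The SE is the log2 fold change divided by the square root of F. CPM are counts scaled to the TMM-corrected library size. Positions, and the median length and GC content of protein-coding transcripts for CPM per kb, came from GENCODE vM21. Trends with GC and length were removed by offsets fitted per mouse with mgcv 1.9.3.

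Genes, gene lists and role groups were chosen with earlier results of these data known. Named were, for each role group, up to 4 genes of smallest p that were higher, each gene called lower, the gene highest per kb, all of complex II, *Cycs*, and the gene nearest the threshold in each complex. Other members and list genes were named after their values were seen, and some genes that entered the fits, counts and sums are not reported here by name. Alternatives were other scalings, filters, DESeq2 1.42.0, limma 3.58.1 (voom, and log2 of TPM plus 1 or 0.1), single repeats, the mouse number as a block, and fewer mice or libraries. The length trend alone, the GC trend alone and the libraries left out were added after the data were seen. edgeR and the trend removal were tested on simulated data. Libraries held 3343375 to 8315722 counts. The libraries had no molecular identifiers, and amplified copies of a molecule count as separate reads. Nothing in the labels says that the recipients were housed or sorted separately, and p-values measure the spread between these mice.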

Additional observations from a re-analysis of the deposited data

Results flagged for a closer look

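Each of 44 quantities (the CPM of the named genes, and the summed CPM of all respiratory chain genes and of each complex) was examined in both genotypes, or 88 groups of 6 libraries, for a library far from the others by Dixon's criterion. This found 6. Chance flags about 1 in 20 groups of independent libraries, and these groups hold 2 technical repeats of each of 3 mice, which are not independent. Below the other libraries labelled BCL6-insufficient were *Ndufa5* in mouse 2 repeat 1 (105.9 CPM, median of the others 162), *Cox7b* in the same library (350.5 CPM, median 455) and *Ndufaf8* in mouse 3 repeat 1 (31.19 CPM, median 49.7). Above them was *Ndufb4c* in mouse 3 repeat 1 (1.782 CPM, median 0.490), a gene too low to test. Among wild-type libraries, mouse 3 repeat 1 was above the others for *Uqcr10* (427.4 CPM, median 353) and *Atp5md* (300.0 CPM, median 241). The 2 low values of *Ndufa5* and *Cox7b* belong to the group in which these genes were higher, and the 2 high values of *Uqcr10* and *Atp5md* to the group in which those were lower.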

How the results depend on the processing

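The median log2 fold change of the respiratory chain genes was 0.26 and stayed above 0 under all 23 alternatives. It was 0.2214 and 0.3238 with technical repeat 1 or 2 only, 0.1667 with GC and length trends removed, 0.1655 with these removed and the replicate block, 0.1666 with the length trend alone removed, 0.1124 with log2(TPM + 1) and 0.1132 with log2(TPM + 0.1). Without 1 mouse at a time it was between 0.2202 and 0.3022, the number higher between 34 and 40, and the number lower between 5 (without wild-type mouse 3) and 12 (without BCL6-insufficient mouse 3), against 42 and 9. The number higher was 18 with repeat 1 only, where 4 were lower, 38 with repeat 2 only, where 7 were lower, and 17 with either TPM pseudocount. With log2(TPM + 0.1) the median over all genes tested was -0.11. DESeq2 called 43 higher and 11 lower. The median of each complex kept its sign in all alternatives, within 0.09 to 0.28 for complex I, -0.54 to -0.35 for II, 0.13 to 0.39 for III, 0.13 to 0.46 for IV and 0.21 to 0.41 for V. *Cox4i1*, at -0.01, was 0.0272 with upper-quartile scaling, 0.0898 with repeat 2 only, 0.1026 with the GC trend removed (added after the data were seen) and between -0.0867 and 0.0375 without 1 mouse at a time, never called. Of the values of single named genes under the alternatives, 772 kept their side of the threshold and direction, 67 lost and 29 gained a call, and 6 turned sign, all of *Cox4i1*. The cause of these changes was not tested. Mouse numbers did not pair the groups: deviations of same-numbered mice had correlations of 0.10, -0.03 and 0.04, and not every mouse correlated best with its own number. With the number as a replicate block, 44 were higher and 13 lower, with a median of 0.26. Depth limits the genes at a few CPM, such as *Cox6b2* (SE 0.71).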

Other observations

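The technical repeats of a mouse gave different sizes for further genes. With repeat 1 only and repeat 2 only, *Atp5g1* had a log2 fold change of 0.55 and 0.17, *Uqcrq* of 0.20 and 0.44, and *Cox8a* of 0.15 and 0.34, while *Uqcrfs1* (-0.44 and -0.33) was closer. *Cox8a*, called higher with all mice (log2 fold change 0.26, adjusted p = 0.032, edgeR), was called in 0 of the 6 fits that left out a mouse.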
